A study of Rattus norvegicus with 9 samples.

Results

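DNA methylation and Polycomb repression are the main systems by which a dividing cell hands down the silencing of its genes. In the first, DNMT1 copies the methyl marks of CpG dinucleotides onto newly made DNA, guided by UHRF1, DNMT3A and DNMT3B add new marks, and the TET proteins oxidize the mark, which leads to its loss. In the second, Polycomb repressive complex 2 (PRC2) methylates histone H3 at lysine 27 (H3K27) through EZH1 or EZH2, and EED binds the mark and activates the complex. In mesenchymal stem cells of fat, these enzymes are studied for their part in holding genes of differentiation silent. Here the 10 genes of these enzymes, Dnmt1, Dnmt3a, Dnmt3b, Uhrf1, Tet1, Tet2, Tet3, Ezh1, Ezh2, and Eed, were selected by symbol from the 35362 genes of the table, and all 10 were found and passed the filter on low counts that left 14770 genes for testing.

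The RNA came from adipose-derived mesenchymal stem cells (ASCs) of male Sprague Dawley rats aged 6 weeks. No group had a genetic change or a treatment, and the rats were starved before the cells were isolated. The question was how the cells of different fat sites differ. SASCs were grown from subcutaneous fat of the groin, PASCs from fat around the kidney, and EASCs from fat around the epididymis. Cells were selected only by adherence to plastic and were sequenced at passage 3. Gene positions are those of the table (rn6 in the study's methods), and promoter positions are on GRCr8. Counts were given for 3 samples per group, whereas the study's methods describe 6 replicates of each, cultured in wells of a plate. The sources used here do not tie the samples to separate rats. The p-values therefore measure the spread between samples that may be technical.

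Total counts ranged from 17591916 to 30299032 per sample, and 3 counts corresponded to 0.104 to 0.159 CPM, the count scaled to the size of the library. Counts of ribosomal RNA genes took 10.4% to 15.5% of SASCs, 22.4% to 32.9% of PASCs, and 15.9% to 40.3% of EASCs, and levels were therefore scaled by edgeR's TMM method. The mesenchymal label was met by Col1a1 at 10692 to 20321 CPM and Col3a1 at 5363 to 8711 CPM as group means, and 9 of 10 mesenchymal markers were tested, with Ly6al at 0. Pdgfra went against the collagens, with 1542 CPM in SASCs, 278 in PASCs, and 235 in EASCs as group means, Pdgfrb fell in both groups (log2 -0.40 in EASCs and -0.48 in PASCs), and Thy1 fell in EASCs (-0.43). Markers of other cells were present at lower summed levels. Those of smooth muscle, led by Tagln and Acta2, summed to 163 to 175 CPM in SASCs, against 2840 to 3138 in PASCs and 6439 to 6802 in EASCs. Those of leukocytes summed to 71.0 to 77.2, 81.2 to 84.1, and 155 to 159 CPM, with Cd3e at 0. Cd68, at 12.6, 16.0, and 35.8 CPM, and Cd163, at 27.8, 7.52, and 30.8, were the highest of this list in EASCs, and Cd14 was the highest in PASCs at 26.9. Adipocyte markers, of which Cfd and Fabp4 led in SASCs, summed highest there at 155 to 168 CPM, against 42.5 to 48.7 in PASCs and 23.9 to 24.9 in EASCs. The sums were 46.3 to 49.3, 12.5 to 15.1, and 33.5 to 35.8 CPM for the endothelial list, with Kdr and Pecam1 the highest in SASCs, 20 to 21.6, 98.9 to 106, and 132 to 143 CPM for the mesothelial list, with Wt1 and Msln the highest in PASCs and EASCs, and 41.2 to 46.8, 9.83 to 12.3, and 3.69 to 3.98 CPM for the Schwann and melanocyte list, with S100b and Mlana the highest in SASCs, with Dct and Tyr at 0. Within the endothelial list Tek went against the sum, with 2.55, 8.29, and 8.07 CPM as group means. The part of these markers in the results was not tested, and in bulk RNA fewer cells of a type cannot be told apart from less RNA per cell.

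The promoters of Ezh2, Uhrf1, and Dnmt1 are shown because these genes passed the test upward against SASCs in both groups and downward from PASCs to EASCs, and because theirs were the only members' windows with an E2F word. E2F proteins are the factors that switch on DNA replication genes, and their core site was searched as TTTCCCGC, TTTGGCGC, TTTCGCGC, or TTTGCCGC on either strand, in windows from 250 bases before to 50 after each start in the RefSeq table of GRCr8. For Ezh2 the window is chr4:77687154-77687433 on the minus strand, for the third annotated start of Uhrf1 it is chr9:1222936-1223215 on the plus strand, and both end 30 bases after the start. For Dnmt1 only the 30 bases that end with the word are shown, chr8:27762809-27762838 on the minus strand, at positions 4 to 33 after the start. Capitals mark the E2F word, read 5′ to 3′ in the direction of the gene.

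Ezh2: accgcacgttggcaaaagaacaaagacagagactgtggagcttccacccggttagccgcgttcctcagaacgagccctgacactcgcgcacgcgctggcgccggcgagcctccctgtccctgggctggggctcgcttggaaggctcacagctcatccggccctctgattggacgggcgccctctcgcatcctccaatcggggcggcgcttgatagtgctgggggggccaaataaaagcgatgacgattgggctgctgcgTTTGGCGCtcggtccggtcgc

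Uhrf1: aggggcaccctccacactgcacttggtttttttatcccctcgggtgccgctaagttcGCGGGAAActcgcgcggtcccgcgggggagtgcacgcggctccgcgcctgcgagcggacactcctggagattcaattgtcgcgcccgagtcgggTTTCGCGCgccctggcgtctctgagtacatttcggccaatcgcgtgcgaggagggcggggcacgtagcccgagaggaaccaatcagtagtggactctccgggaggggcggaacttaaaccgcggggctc

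Dnmt1: ccctcccaattggtttccgcgcGCGCGAAA

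An E2F word was found in 716 of all 33469 windows (2.14%). It was present in 3 of the 15 windows of the 8 members in the table, once in Ezh2 at 10 bases after the start, once in Dnmt1 at 26 bases after it, and in Uhrf1 at -193 and -99. The other starts of Uhrf1 and the windows of Dnmt3a, Tet1, Tet2, Tet3, and Eed held none of these letters. Windows of Dnmt3b and Ezh1 were not in the table. The CCAAT box, bound by NF-Y, was found in 10 of the 15 windows of members and in 37.5% of all windows, and Ezh2 held 3. The CHR element of cell cycle genes (TTTGAA or TTCGAA) was in none of the members' windows and in 19.7% of all, and no word of these motifs contains another. CpG dinucleotides, the substrate of the DNA methyltransferases, numbered 39 in the window of Tet2, 35 in that of the third Uhrf1 start, and 30 in that of Ezh2, against a median of 7 over all windows, and the other windows of members held 3 to 23. These matches describe letters in the sequence and no binding was measured.

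Members of both systems went in opposite directions between the sites of origin. The maintenance pair Dnmt1 and Uhrf1 and the PRC2 genes Ezh2 and Eed were higher in PASCs and EASCs than in SASCs, while Tet2, Tet1, and Ezh1 were lower, and Tet3 did not pass the test. Between EASCs and SASCs, 2 of 10 members were differentially expressed genes (DEGs) upward, that is, more than 2-fold apart at an adjusted p below 0.05 (edgeR's quasi-likelihood test with Benjamini-Hochberg adjustment), where 13.5% of all genes tested were, and 3 were DEGs downward, against 14.2%. At any fold, 5 members passed the adjusted threshold upward and 4 downward, against 35.5% and 34.3% of all genes. Between PASCs and SASCs the counts were 3 DEGs upward and 2 downward, against 12% and 14.9%, and 4 passed upward and 3 downward at any fold, against 34.6% in each direction. Between EASCs and PASCs no member reached a fold of 2 upward, Dnmt3a being nearest at 1.69-fold, where 5.19% of genes were DEGs, and 1 was a DEG downward, against 2.2%, while 1 passed upward and 4 downward at any fold, against 16.1% and 14.5%. The median log2 fold change of the 10 members was 0.31 for EASCs and 0.04 for PASCs against SASCs, and 0.04 for EASCs against PASCs, beside medians of all genes of 0.01, -0.01, and -0.01. With 10 genes, none of these counts was set apart from the background by a test. The comparisons share samples, so that their values stand side by side and are not independent.

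**Figure D1:**
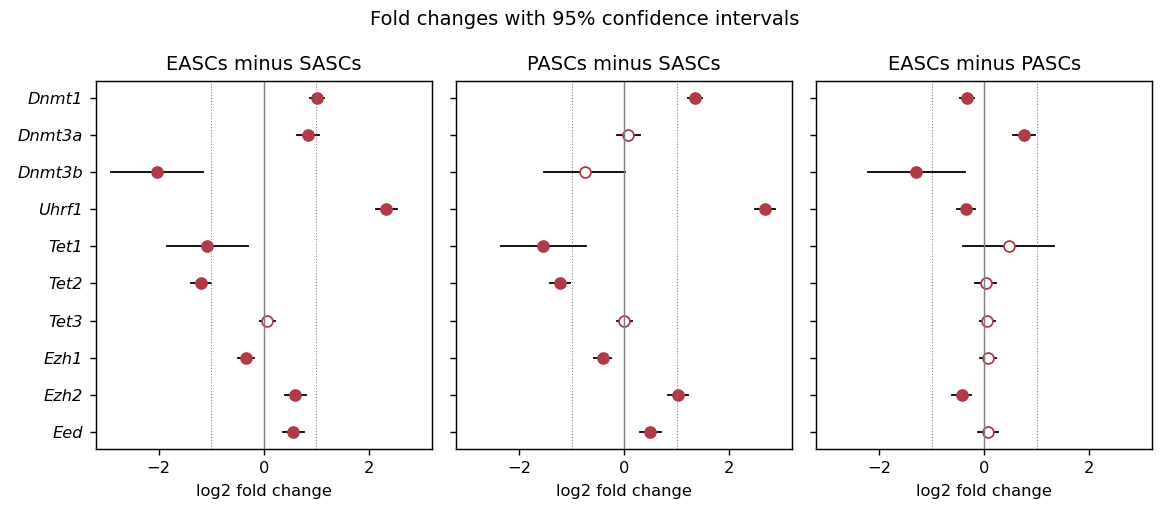
Log2 fold change (x axis, with 95% confidence interval) of each member (y axis) in the 3 comparisons. Filled points passed an adjusted p-value of 0.05 and open points did not. Dotted lines mark a fold change of 2. Uhrf1 lies farthest to the right in both comparisons with SASCs, and the intervals of Dnmt3b and Tet1 are the widest.

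Dnmt1, the maintenance methyltransferase (chromosome 8, 21922515 to 21968495, minus strand), had 36.3, 37.7, and 34.2 CPM in the 3 samples of SASCs, against 91.7, 91.5, and 92.0 in PASCs and 69.2, 80.7, and 68.3 in EASCs. The 3 groups did not overlap, and PASCs had a mean of 91.8 CPM ± 0.253 (SD, n = 3). The log2 fold change was 1.35 for PASCs against SASCs (SE 0.0670, adjusted p = 4.09e-16) and 1.01 for EASCs against SASCs (SE 0.0673, adjusted p = 2.48e-13). For EASCs against PASCs it was -0.33 (adjusted p = 1.60e-04), and this difference did not pass without TMM. The value for EASCs against SASCs lay just above a fold of 2, at 2.02-fold. It was below that with DESeq2 or RLE factors (0.99), with rRNA genes removed (0.89), and without TMM (0.63). It was also below without SASCs replicate 3 (0.97) or EASCs replicate 2 (0.93), and it passed the adjusted threshold in each of these fits.

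Uhrf1, which brings DNMT1 to hemimethylated DNA behind the replication fork (chromosome 9, 10739306 to 10758403, minus strand), rose the most of the 10 in both comparisons with SASCs. Its levels were 6.15, 5.81, and 5.32 CPM in SASCs, against 37.9, 35.6, and 38.2 in PASCs and 26.8, 30.9, and 29.9 in EASCs. Every sample of PASCs and EASCs lay far above SASCs, and PASCs lay above EASCs without overlap. The increase was 6.42-fold in PASCs (log2 2.68, SE 0.0949, adjusted p = 1.72e-19) and 5.04-fold in EASCs (log2 2.33, SE 0.0959, adjusted p = 5.18e-18). The log2 value of EASCs against PASCs was -0.35 (adjusted p = 1.13e-03), and this difference did not pass without TMM.

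The de novo methyltransferases behaved differently from the maintenance pair and from each other. Dnmt3a (chromosome 6, 28235695 to 28346052, plus strand) had 19.0, 15.1, and 15.8 CPM in SASCs, against 20.1, 15.4, and 17.4 in PASCs and 27.6, 30.02, and 31.9 in EASCs. SASCs and PASCs overlapped, with a log2 difference of 0.08 (95% interval -0.14 to 0.30, adjusted p = 0.512), and EASCs lay above all samples of both. In EASCs Dnmt3a rose by 0.84 against SASCs (SE 0.102, adjusted p = 4.52e-08) and by 0.76 against PASCs (adjusted p = 1.12e-06) on the log2 scale. The row named Dnmt3a in the table carries the gene ID and description of Grhl1, which has a row of its own. The position of the row has 8 of its 10 nearest named protein-coding genes in common with those of Dnmt3a in the RefSeq table, among them Pomc and Dtnb, and the identity of its counts is given with this limit.

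Dnmt3b (chromosome 3, 149131541 to 149213211, plus strand), the methyltransferase most used in early embryonic cells, had few reads in any group, with 36, 34, and 32 counts in SASCs, against 31, 18, and 12 in PASCs and 8, 6, and 10 in EASCs. In CPM these were 1.25, 1.44, and 1.56, then 1.19, 0.673, and 0.635, and then 0.335, 0.243, and 0.447, and no groups overlapped. The log2 fold change was -2.04 for EASCs against SASCs (SE 0.427, adjusted p = 1.37e-04), -0.74 for PASCs against SASCs (SE 0.375, adjusted p = 0.0795), and -1.30 for EASCs against PASCs (SE 0.450, adjusted p = 0.0291). The last value did not pass without PASCs replicate 1 (-0.94, adjusted p = 0.204), EASCs replicate 1 (-1.29, adjusted p = 0.0748), or EASCs replicate 2 (-1.10, adjusted p = 0.127), and without PASCs replicate 1 the decrease in PASCs passed (-1.10, adjusted p = 0.0353). Dnmt3b and Tet1 were both highest in SASCs and had counts near the limit of the filter in samples of the other groups. Dnmt3l, the cofactor of these enzymes in germ cells, had 0 counts in every sample.

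**Figure D2:**
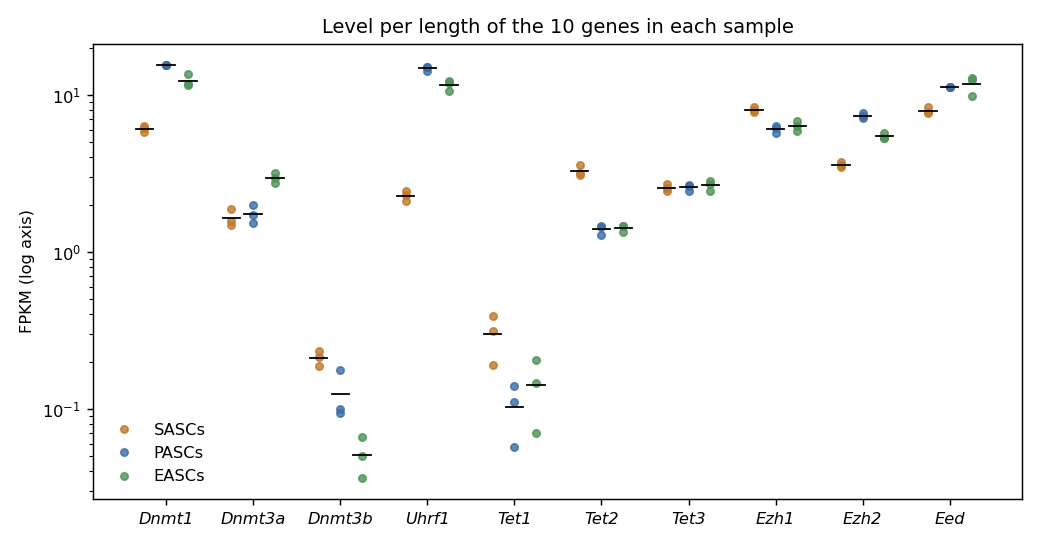
Level per gene length (FPKM, log axis) of the 10 members in each of the 9 samples. Points are samples, coloured by group, and bars are means of 3. Dnmt3b and Tet1 lie below 1 FPKM in every sample, and Dnmt1 and Uhrf1 are the highest in PASCs.

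Of the TET dioxygenases, Tet2 fell, Tet3 did not pass the test, and Tet1 was scarce. Tet2 (chromosome 2, 238719389 to 238802979, minus strand), an enzyme often mutated in blood cancers, had 28.4, 29.4, and 33.1 CPM in SASCs, against 11.9, 13.5, and 13.6 in PASCs and 13.6, 13.7, and 12.4 in EASCs. All samples of SASCs lay above all others, and PASCs overlapped EASCs. The log2 fold change was -1.22 in PASCs (SE 0.0930, adjusted p = 4.43e-12) and -1.19 in EASCs (SE 0.0928, adjusted p = 6.76e-12) against SASCs, and 0.03 between EASCs and PASCs (95% interval -0.17 to 0.23).

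Tet3 (chromosome 4, 115060702 to 115160802, minus strand) had the smallest fold changes from SASCs of the 10, with 45.5 to 50.9 CPM in SASCs, against 45.5 to 50.1 in PASCs and 46.1 to 53.3 in EASCs. The groups overlapped in every comparison, and the log2 differences from SASCs were 0.06 in EASCs (95% interval -0.08 to 0.20) and 0.01 in PASCs (95% interval -0.14 to 0.15), with signs that turned under other scalings. A gene on the other strand, LOC102548361, lies within Tet3 with 21 to 77 counts, and whether the counting used strand is not stated.

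Tet1 (chromosome 20, 27359125 to 27438039, plus strand), the TET enzyme of embryonic stem cells, had 65, 32, and 57 counts in SASCs, against 26, 11, and 15 in PASCs and 12, 26, and 33 in EASCs. In CPM the levels were 2.26, 1.36, and 2.78 in SASCs, against 0.994, 0.411, and 0.794 in PASCs and 0.502, 1.05, and 1.48 in EASCs, so that EASCs reached into the range of SASCs and PASCs did not. The log2 fold change was -1.54 in PASCs (SE 0.392, adjusted p = 1.12e-03) and -1.08 in EASCs (SE 0.376, adjusted p = 0.0132), the latter not passing without SASCs replicate 3 (-0.86, adjusted p = 0.0797) or EASCs replicate 1 (-0.75, adjusted p = 0.0899). LOC100910945 on the other strand overlaps Tet1 with 3 to 28 counts, against 11 to 65 for Tet1, so the share of reads that belongs to Tet1 is uncertain.

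In PRC2, the catalytic subunits changed in opposite directions. Ezh2 (chromosome 4, 77284404 to 77347012, minus strand), the subunit of dividing cells, had 10.8, 10.1, and 10.4 CPM in SASCs, against 20.7, 21.3, and 22.3 in PASCs and 16.7, 15.6, and 15.4 in EASCs. The groups did not overlap, in the order PASCs, EASCs, and SASCs. The log2 fold change was 1.03 in PASCs (SE 0.0936, adjusted p = 1.64e-10), at 2.04-fold just above the threshold, and 0.60 in EASCs (SE 0.0954, adjusted p = 3.35e-06), and EASCs were below PASCs (-0.43, adjusted p = 4.66e-04). The value for PASCs was under a fold of 2 without TMM (0.71) and with rRNA genes removed (0.96). LOC102556526, with 4 to 33 counts, overlaps Ezh2 on the other strand.

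Ezh1 (chromosome 10, 89104026 to 89139943, minus strand), the subunit known from resting and differentiated cells, had 34.4, 35.4, and 36.6 CPM in SASCs, against 27.9, 27.1, and 25.1 in PASCs and 30.2, 26.0, and 28.0 in EASCs. SASCs were above the other samples without overlap, by less than a fold of 2. The decrease was -0.41 in PASCs (SE 0.0763, adjusted p = 3.68e-05) and -0.34 in EASCs (SE 0.0761, adjusted p = 3.30e-04) on the log2 scale, and EASCs differed from PASCs by 0.07 (95% interval -0.09 to 0.23).

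Eed (chromosome 1, 154189252 to 154216340, minus strand), the core subunit that both forms of PRC2 need, had 16.8, 15.4, and 15.6 CPM in SASCs, against 22.6, 22.5, and 22.6 in PASCs and 25.02, 25.7, and 19.99 in EASCs. SASCs were lowest without overlap, and EASCs enclosed PASCs. Eed rose by 0.50 in PASCs (SE 0.0951, adjusted p = 4.35e-05) and by 0.56 in EASCs (SE 0.0948, adjusted p = 8.24e-06), and the difference between them was 0.06 (95% interval -0.13 to 0.25). Without TMM the rise of Eed did not pass in either group (0.18, adjusted p = 0.388 in PASCs and 0.19, adjusted p = 0.351 in EASCs), nor did that of Ezh2 in EASCs (0.21, adjusted p = 0.318). Scaling by total counts alone moved the median of all genes to -0.39 in EASCs and -0.33 in PASCs.

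Per length, the order of the members changed between the sites. In SASCs Ezh1 was highest at 8.05 ± 0.251 FPKM (SD, n = 3), followed by Eed at 7.90 ± 0.371, whose samples overlapped those of Ezh1, and Dnmt1 at 6.10 ± 0.304. In PASCs Dnmt1 led at 15.5 ± 0.0427 FPKM, before Uhrf1 at 14.7 ± 0.561, Eed at 11.2 ± 0.0262, and Ezh2 at 7.36 ± 0.286, with no overlap between these neighbours. In EASCs Dnmt1 at 12.3 ± 1.18, Eed at 11.7 ± 1.55, and Uhrf1 at 11.5 ± 0.840 FPKM overlapped in a row and stood above Ezh1 at 6.37 ± 0.477. In SASCs Dnmt1 was followed by Ezh2 at 3.59 ± 0.115, overlapping Tet2 at 3.27 ± 0.269, and then, apart from both, by Tet3 at 2.56 ± 0.145. Uhrf1 was the seventh in SASCs, at 2.28 ± 0.165 FPKM and overlapping Tet3, and Dnmt3a followed at 1.65 ± 0.208. In PASCs the order went on with Ezh1 at 6.06 ± 0.331, Tet3 at 2.57 ± 0.129, Dnmt3a at 1.75 ± 0.238, and Tet2 at 1.40 ± 0.0998, each apart from the next. In EASCs it went on with Ezh2 at 5.46 ± 0.253, Dnmt3a at 2.96 ± 0.212 overlapping Tet3 at 2.67 ± 0.197, and Tet2 at 1.42 ± 0.0733. Tet1 and Dnmt3b were last in all groups, between 0.0509 and 0.298 FPKM as group means.

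Ratios between members within a sample, in which the scaling between samples cancels, were compared next. The log2 ratio of Ezh2 to Ezh1 per length was -1.16 ± 0.0781 (SD, n = 3) in SASCs, 0.28 ± 0.135 in PASCs, and -0.22 ± 0.0682 in EASCs, and no groups overlapped. Ezh2 thus exceeded Ezh1 in all 3 samples of PASCs and in no other sample. The log2 ratio of Uhrf1 to Dnmt1 was -1.42 ± 0.0740 in SASCs and near 0 elsewhere, at -0.08 ± 0.0523 in PASCs and -0.09 ± 0.106 in EASCs. Tet2 exceeded Tet3 in SASCs only among the groups, with a log2 ratio of 0.35 ± 0.0427, against -0.88 ± 0.143 in PASCs and -0.91 ± 0.168 in EASCs.

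The remaining ratios set the de novo enzymes and Eed against their partners. Dnmt3b to Dnmt3a went from -2.96 ± 0.326 in SASCs to -3.87 ± 0.348 in PASCs and -5.90 ± 0.411 in EASCs without overlap. Dnmt1 to Dnmt3a was 3.16 ± 0.195 in PASCs and overlapped between SASCs at 1.89 ± 0.195 and EASCs at 2.05 ± 0.168. Eed to Ezh2 was lowest in PASCs at 0.60 ± 0.0567, against 1.14 ± 0.0288 in SASCs and 1.09 ± 0.175 in EASCs. With 3 samples against 3, a two-sided exact permutation test cannot go below p = 0.1, and with SASCs against the 6 others it cannot go below 0.0238, which the ratios of Ezh2 to Ezh1, Dnmt3b to Dnmt3a, Uhrf1 to Dnmt1, and Tet2 to Tet3 reached (adjusted p = 0.126 over 24 tests).

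**Figure D3:**
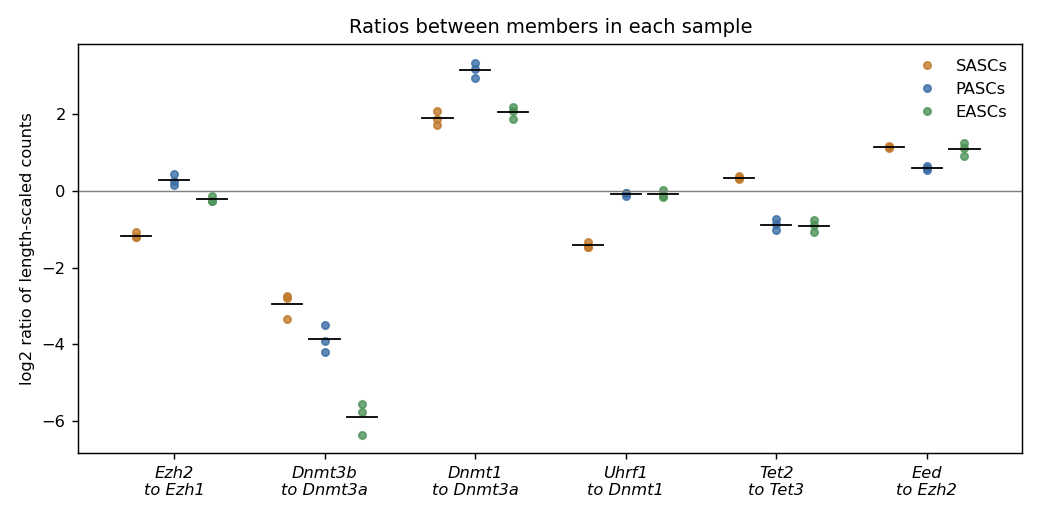
Log2 ratio of length-scaled counts for 6 pairs of members in each of the 9 samples, with bars at the means of 3. Ezh2 to Ezh1 and Uhrf1 to Dnmt1 are lowest in SASCs, Tet2 to Tet3 is highest there, and Dnmt3b to Dnmt3a is lowest in EASCs.

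The genes of cell division differed between the same groups and are given as a measured companion to the members, which went in both directions. All 30 S-phase genes of DNA replication passed the test upward in both comparisons with SASCs, 26 as DEGs in EASCs and 29 in PASCs, with medians of 1.62 and 1.88 on the log2 scale and with Tk1 (2.64 and 3.55), Cdc45 (2.63 and 3.12), and Cdc6 (2.72 and 3.09) as the largest 3 in PASCs, where Mcm5 was close (2.64 in EASCs and 3.08 in PASCs). All 18 mitotic genes were DEGs upward, with medians of 2.49 and 3.27, led by Plk1 (3.5 and 4.06), Ccnb1 (3.30 and 4.02), and Ube2c (3.42 and 3.96). Of all genes, 13.5% were DEGs upward in EASCs and 12% in PASCs. Between EASCs and PASCs the medians of these lists were -0.37 and -0.74. The share of cells in each phase was not measured, and the part of cell division in the members' differences was not tested.

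Each member's log2 CPM was therefore also set against the mean of the 30 S-phase genes in the same sample. Because this reference rose outside SASCs, any gene that rose by less than it has a lower relative level there by construction, as for Tet3, whose relative difference from SASCs was -1.97 in PASCs and -1.57 in EASCs. The relative level therefore shows only whether a member rose by more or by less than the mean of the S-phase genes, which differed among themselves. On this scale Dnmt1 stood at 2.37 ± 0.0555 (SD, n = 3) in SASCs, 1.74 ± 0.0417 in PASCs, and 1.74 ± 0.130 in EASCs, so that it rose by less than that mean. Ezh2 went the same way, from 0.59 ± 0.0469 in SASCs to -0.35 ± 0.0946 in PASCs and -0.44 ± 0.0481 in EASCs, with PASCs and EASCs overlapping. Uhrf1 alone among the members rose by more than that mean, with -0.26 ± 0.0855 in SASCs, 0.44 ± 0.0736 in PASCs, and 0.43 ± 0.122 in EASCs. Against the mitotic genes in place of the S-phase genes its differences from SASCs were -0.45 in PASCs and -0.10 in EASCs, so that its direction depends on the reference.

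For Dnmt1, Uhrf1, and Ezh2 the differences between EASCs and PASCs that had passed the test in CPM were -0.00077, -0.01, and -0.09 on this scale, and their samples overlapped. Against the mitotic genes the same differences were 0.36, 0.35, and 0.27, so that this too depends on the reference. The other members were lower relative to the mean of the S-phase genes outside SASCs, with differences of -1.08 in EASCs and -1.47 in PASCs for Eed (means of 1.20 in SASCs, 0.12 in EASCs, and -0.27 in PASCs), and larger ones for Ezh1 (2.35, 0.37, and -0.03), Tet3 (2.78, 1.21, and 0.82), and Tet2 (2.12, -0.71, and -1.07). Dnmt3a stood at 1.25 ± 0.169 in SASCs, 0.46 ± 0.127 in EASCs, and -0.64 ± 0.180 in PASCs without overlap. The scarce genes Dnmt3b (-2.22, -5.70, and -4.96 in that order) and Tet1 (-1.71, -4.42, and -5.14) depend on the prior count on this scale.

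**Figure D4:**
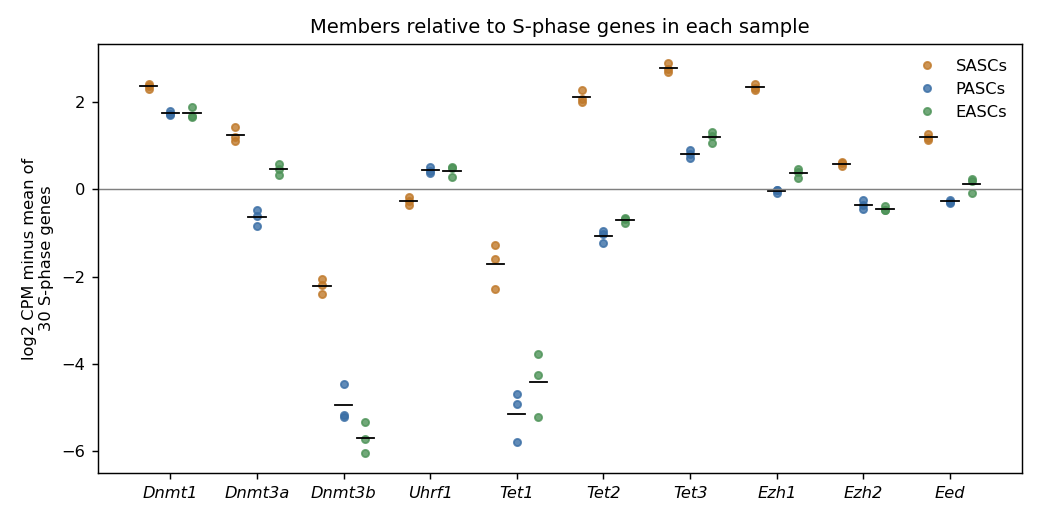
Log2 CPM of each member minus the mean log2 CPM of 30 S-phase genes, in each of the 9 samples, with bars at the means of 3. Uhrf1 alone is higher in PASCs and EASCs than in SASCs, and for Dnmt1, Uhrf1, and Ezh2 the points of PASCs and EASCs overlap.

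The factors that read or repress through E2F sites moved as follows. Of 11 genes of the RB and E2F family, 5 were DEGs upward in each comparison with SASCs, where 13.5% (EASCs) and 12% (PASCs) of all genes were. In each, 2 passed downward by less than a fold of 2, against 34.3% of all genes in EASCs and 34.6% in PASCs. The family medians were 0.54 in EASCs and 0.70 in PASCs. The replication activators E2f1 (1.42 in EASCs and 1.84 in PASCs) and E2f2 (2.84 and 2.89), the late repressors E2f7 (2.35 and 2.87) and E2f8 (1.76 and 2.38), and the pocket protein p107, Rbl1 (1.06 and 1.54), rose on the log2 scale. Rbl2, chosen after its values were seen, is p130, the pocket protein of resting cells, and fell (-0.79 and -0.76). The INK4 and CIP/KIP genes encode inhibitors of cyclin-dependent kinases, and several are classic targets of PRC2. Of the 6 tested, 1 was a DEG upward and 2 downward in EASCs, against 13.5% and 14.2% of all genes. In PASCs 2 were DEGs upward and 2 downward, against 12% and 14.9%. With 6 genes, these counts were not set apart from the background by a test. The list medians were -0.03 in EASCs and 0.37 in PASCs. Cdkn1c, an imprinted gene, fell from 30.8 CPM in SASCs to 0.691 in PASCs (log2 -5.51) and 0.912 in EASCs (log2 -5.06), and Cdkn2b fell by -1.0 and -2.24. Cdkn2c rose by 1.98 in PASCs and 1.26 in EASCs, and Cdkn1a by 0.66 and 0.80. Cdkn2a rose in PASCs (1.22) and stood at 0.11 in EASCs (adjusted p = 0.631).

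The other subunits of PRC2 were nearly all measured. Counts of genes passing at any fold, here and in the lists that follow, stand beside 34.3% to 35.5% of all genes in each direction. Of 10 partner genes, 9 were tested, of which 4 passed upward and 3 downward in each comparison with SASCs. Only Phf19 was a DEG, upward in both, where 13.5% (EASCs) and 12% (PASCs) of all genes were. The medians were 0.19 in EASCs and 0.00020 in PASCs. Phf19, a subunit that binds methylated H3 lysine 36, had 1.69 CPM in SASCs, 11.6 in PASCs, and 5.01 in EASCs, which is 2.77 on the log2 scale in PASCs (adjusted p = 1.00e-14) and 1.56 in EASCs (adjusted p = 6.24e-09), and was also a DEG between EASCs and PASCs (-1.21, adjusted p = 6.17e-08). The core subunits rose by less than a fold of 2. Suz12, the scaffold, rose by 0.20 in EASCs, with samples that overlapped SASCs (adjusted p = 0.0334), and by 0.30 in PASCs. The histone chaperones Rbbp4 (0.31 and 0.30) and Rbbp7 (0.85 and 0.70) rose as well. Without TMM the median of all genes moved to -0.39 in EASCs and -0.33 in PASCs. The rises of Suz12 and Rbbp4 are smaller than this and so depend on the scaling.

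The other accessory subunits, apart from Phf19, fell or did not pass. Jarid2 (-0.58 in EASCs and -0.65 in PASCs) and Aebp2 (-0.45 and -0.36), which define the PRC2.2 form, fell, as did Phf1 (-0.76 and -0.60), a subunit of the PRC2.1 form like Phf19. Mtf2 had log2 differences of -0.04 and 0.00020 (adjusted p = 0.719 and 0.999), and Lcor of 0.19 and -0.08 (adjusted p = 0.107 and 0.501). Epop was not found in the table. On the opposing side, the H3K27 demethylases and the H2A deubiquitinase complex gave 6 tested genes. Of these, 4 passed downward in EASCs and 5 in PASCs, all by less than a fold of 2. The demethylase Kdm6b (-0.18 in EASCs and -0.35 in PASCs) and Asxl1 (-0.15 and -0.25) and Asxl2 (-0.35 and -0.43) of the deubiquitinase fell in both groups, and the demethylase Kdm6a fell in PASCs (-0.35) and stood at -0.12 in EASCs (adjusted p = 0.317). Asxl3 was at or under 1 CPM in the group means and rose in EASCs (1.34, adjusted p = 0.0137), with medians of the list of -0.17 and -0.30.

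In Polycomb repressive complex 1 (PRC1), which binds the H3K27 mark and ubiquitinates histone H2A, 21 of 23 genes were tested, with Pcgf1 at 0 and Auts2 not found in the table. In EASCs 11 passed upward and 5 downward, against 35.5% and 34.3% of all genes, and in PASCs 8 and 3, against 34.6% in each direction, so that the 8 lie near the background. The medians were 0.25 and 0.13. The chromobox subunits that read the mark held the 3 largest changes against SASCs. Cbx8 rose by 1.28 in EASCs and 1.38 in PASCs and Cbx2 by 1.42 and 0.66, and Cbx7 fell by -0.95 and -1.13. Ring1, a ubiquitin ligase of the complex, rose by 0.30 and 0.66.

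**Figure D5:**
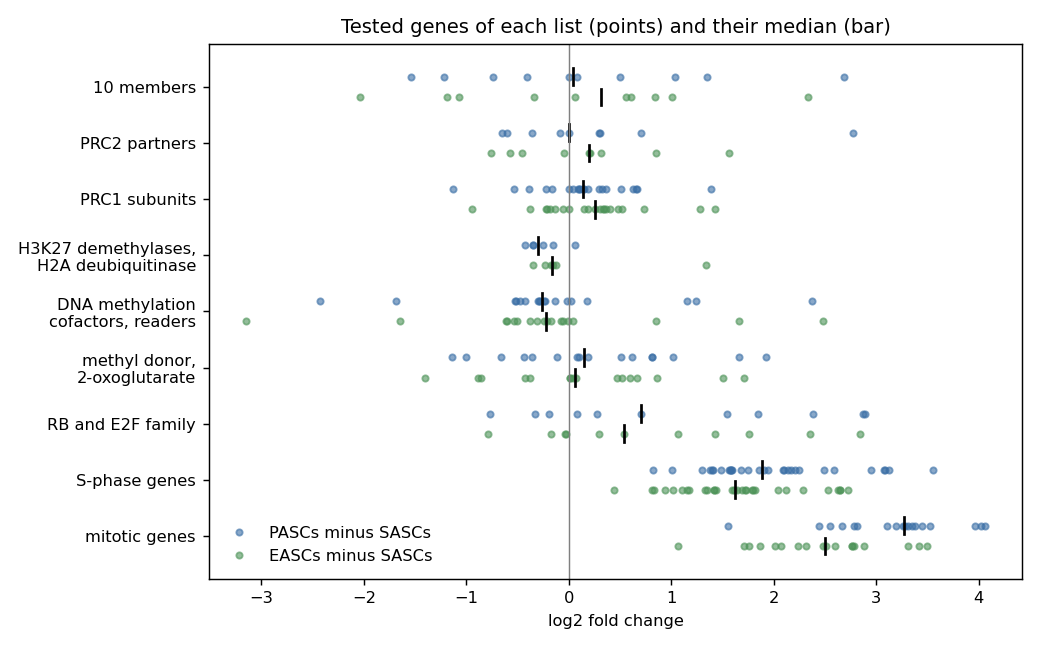
Log2 fold changes (x axis) of the tested genes in the members and 8 companion lists (y axis), for PASCs and EASCs against SASCs. Points are genes and bars are list medians. The S-phase and mitotic lists lie to the right of 0, while the members and the Polycomb and DNA methylation lists lie on both sides.

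Around the DNA methylation enzymes, 18 of 22 cofactors and readers were tested. In EASCs 11 passed downward and 3 upward, where 34.3% and 35.5% of all genes did, and in PASCs 10 and 4, against 34.6% in each direction. The medians were -0.23 and -0.26. Uhrf2, the paralog of Uhrf1, fell from 125 CPM in SASCs to 38.8 in PASCs and 39.9 in EASCs, a log2 fold change of -1.68 (adjusted p = 3.06e-19) and -1.65 (adjusted p = 4.72e-19), opposite to Uhrf1. Cdca7, the partner of the remodeler HELLS in DNA methylation, rose from 1.70 to 8.93 and 9.54 CPM (log2 2.38 in PASCs and 2.48 in EASCs), and Hells itself was below the filter on low counts. Gadd45a, a stress gene linked to active demethylation, fell from 208 CPM to 38.6 and 23.4 (log2 -2.43 and -3.15), and Gadd45b rose from 19.6 to 46.3 and 61.8 (log2 1.24 and 1.66). Mbd3, of the NuRD complex, rose by 1.16 in PASCs and 0.85 in EASCs. Zbtb33 was at 0 counts and Cxxc4 was below the filter.

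The enzymes draw on S-adenosylmethionine and, for TET proteins, on 2-oxoglutarate. Of 16 genes that supply or clear these, all were tested, and 7 passed upward and 5 downward in each comparison with SASCs, with medians of 0.06 in EASCs and 0.14 in PASCs. Ahcy, which clears the product that inhibits methyltransferases, rose by 1.71 in EASCs and 1.93 in PASCs, and Shmt2, a mitochondrial enzyme of the folate cycle, by 1.5 and 1.66. Mthfd1, which interconverts folates in the cytosol, rose by 0.59 and 1.02. Idh1, a cytosolic source of 2-oxoglutarate, fell by -1.40 and -1.0. Germline genes that promoter methylation is known to silence in body cells were mostly below the filter on low counts. Of 18, 4 passed it, with medians of -0.35 and -0.49. Sycp3, a protein of meiotic chromosomes, fell from 2.25 CPM in SASCs to 0.795 in PASCs and 0.705 in EASCs (adjusted p = 1.23e-03 and 6.74e-04), and Rpl10l, at 7.65 CPM in SASCs, fell by -0.56 and -0.55. Tdrd1 and Piwil2 did not pass (adjusted p = 0.708 and 0.564 in PASCs, 0.740 and 0.905 in EASCs).

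Some genes followed a member closely over the 9 samples, by Pearson correlation of log2 CPM among 12763 genes with a mean of at least 1 CPM. The points share the same 3 groups, so that the values mostly reflect the order of the group means and carry no test. Closest to Dnmt1 were Whsc1, a methyltransferase of H3 lysine 36 (r = 0.996), and the repair polymerase gene Polq (0.995). Closest to Uhrf1 were Slc39a13 and Cspg4, a surface proteoglycan of pericytes (both 0.999), and to Ezh2 Pgm1 (0.996) and Ppm1g (0.995). Tet2 was followed by the nuclear corepressor gene Ncor1 and by LOC691920 (both 0.998), and Ezh1 by LOC102553394 (0.986) and the excision repair gene Ercc5 (0.984). Dnmt3a, which was highest in EASCs, was followed by Eln, the gene of elastin (0.980), and Bhlhe22 (0.977). For Eed the nearest were LOC100363296 and Zranb3 (both 0.980), for Dnmt3b Tmem9b (0.974) and Dip2c (0.972), for Tet1 Zfp516 (0.958) and Chst2 (0.939), and for Tet3, which hardly varied, LOC100362059 (0.926) and LOC100910802 (0.889).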

How the data were processed

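Total RNA of 9 samples was sequenced. The authors aligned paired reads with TopHat2 to the rat genome (rn6 in the methods and rn5 in the submitters' processing notes) and deposited whole-number counts per gene for 9 samples, with a gene length. Positions are those of the table. The counting tool and its use of strand are not given in the sources used here, so overlapping genes may share reads.

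Counts were filtered (filterByExpr), scaled by TMM (factors 0.740 to 1.23) and fitted in one model of 3 groups with edgeR 4.0.16 in R 4.3.3 by the quasi-likelihood test, with Benjamini-Hochberg adjustment over 14770 genes. DEGs were more than 2-fold apart at an adjusted p below 0.05. FPKM was computed from TMM-scaled counts and the table's length, and log2 CPM used a prior count of 2. The fit was also run on simulated counts with a common spread for all genes, and no result given here rests on it. Ratios were tested by exact permutation, and levels relative to S-phase genes are given without a test, since the reference itself rose. Intervals and the 3-count floor cover counting error and sample spread only.

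Alternatives were DESeq2 1.42.0, RLE factors, no TMM, removal of 7 rRNA genes, no filter, only the groups compared, a replicate block, a fold of 1.5, mitotic genes as reference, and leaving out each sample. Samples with the same number did not deviate together (correlations -0.035 to 0.038). Members and lists were chosen with earlier results of these data known. The genes named were all members and PRC2 partners, the 5 genes of each other list with the largest change (3 for division genes), the 2 nearest genes of each member, and the 2 highest markers of each list. Some genes that this rule selects are not reported here.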

Additional observations from a re-analysis of the deposited data

How the results depend on the processing

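The numbers of DEGs were 4104 for EASCs against SASCs, 3979 for PASCs against SASCs, and 1091 for EASCs against PASCs, and at a fold of 1.5 they were 6413, 6405, and 1945. Without TMM, 1349 genes were DEGs upward and 3425 downward in EASCs (2001 and 2103 with TMM) and 1262 and 3165 in PASCs (1779 and 2200). Among members, DEGs between EASCs and PASCs numbered 2 at a fold of 1.5. Leaving out a sample gave 3 to 5 member DEGs for EASCs against SASCs, with 3 without SASCs replicate 3, and 0 to 1 for EASCs against PASCs, with 0 without PASCs replicate 1, EASCs replicate 1, or EASCs replicate 2.

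Apart from levels set against mitotic genes, signs turned only for values that had not passed the test. Against mitotic genes, the differences of Uhrf1 from SASCs turned (-0.102 in EASCs and -0.453 in PASCs). The differences of Dnmt1, Uhrf1, and Ezh2 between EASCs and PASCs turned there too. Without TMM, Tet3 became -0.34 in EASCs and -0.32 in PASCs against SASCs, Dnmt3a -0.24 in PASCs, and Tet2, Tet3, and Ezh1 -0.039, -0.020, and -0.0028 between EASCs and PASCs. With rRNA genes removed, Tet3 became -0.061 in EASCs and -0.062 in PASCs against SASCs and Tet2 -0.028 between EASCs and PASCs. Tet3 in PASCs was -0.0088 with RLE factors, -0.0089 with DESeq2, and over the leave-one-out fits -0.034 to 0.049, below 0 without SASCs replicate 1, PASCs replicate 1 (-0.0074), or PASCs replicate 3. In these fits Dnmt3a in PASCs ranged from -0.030 (without PASCs replicate 1) to 0.19, and between EASCs and PASCs Tet2 ranged from -0.033 (without PASCs replicate 1) to 0.074 and Eed from -0.0042 (without EASCs replicate 2) to 0.17. Calls lost without TMM, beside those of Eed and Ezh2, were Dnmt1 (-0.39, adjusted p = 0.0893) and Uhrf1 (-0.42, adjusted p = 0.0806) between EASCs and PASCs. Dnmt3b in PASCs then passed (-1.08, adjusted p = 0.0236). The cause was not tested.

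Under a replicate block, DEGs numbered 4061, 3944, and 1068. Samples with the same number shared no deviation. This cannot tell whether the numbers pair them, since their link to rats is not stated. At these depths Dnmt3b and Tet1, at 6 to 65 counts, are measured least precisely.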
